A study of Rattus norvegicus with 74 samples.

Results

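Mitochondrial preparations from rat skeletal muscle were ordered by the share of their sequencing counts that fell on genes of the mitochondrial genome. The 10 preparations with the highest share were then compared with the 10 of lowest share, 20 of the 30 preparations in a series of 74 libraries. A gene was taken as mitochondrial-genome where its symbol began with Mt- or its biotype with Mt_, which gave 37 genes: 13 mRNAs, 2 rRNAs and 22 tRNAs. The other 30523 genes are called nuclear-encoded. The preparations were chosen by their measured share and the groups are not arms of the study, so the share itself, and the counts behind it, are given as a description with no test.

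All rats were male wild-type Wistar Kyoto, 9 weeks old at sampling, and drank water with deuterium oxide. In the exercise-trained arm (ExT) they ran on a treadmill on 5 days a week for 4 weeks, up to 60 min at 20 m/min, and in the sedentary arm (Sed) they were placed on a treadmill standing still. Sampling came 24 h after the final session. From the red inner gastrocnemius, a calf muscle, a fresh piece gave the mitochondrial preparation (MT, captured with an antibody and exposed to RNase-A and to proteinase-K), and a frozen piece of the same muscle gave a whole-muscle library (SM). RNA was treated with DNase-I on the column, and libraries were made with a kit that depletes ribosomal RNA, from 10 ng of MT RNA or 50 ng of SM RNA.

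Mitochondria keep a small circular genome that encodes subunits of the respiratory chain together with the rRNAs and tRNAs of their own ribosome. Nearly all other mitochondrial proteins are encoded in the nucleus, translated in the cytosol and imported. Nuclear-encoded counts of the preparations are set here beside genes of a cell's other compartments and of the other cells of a muscle. Where those counts come from was not tested. In a bulk preparation, fewer cells or fragments of a type and less RNA in each cannot be told apart.

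Among the 10 highest preparations the mitochondrial-genome share ran from 57.8% to 95.4% with a median of 80.1%, and among the 10 lowest from 12.9% to 35.7% with a median of 23.4%. The cut points were narrow. Just inside the high group was the Sed library of rat 16 at 57.8% (95% Wilson interval 57.7 to 57.8), and just outside it the ExT library of rat 25 at 56.7% (56.6 to 56.7). At the lower cut, the ExT library of rat 18 held 35.7% (35.6 to 35.8) and the ExT library of rat 22, which stayed out, 38.8% (38.7 to 38.9). Intervals cover counting error only, since reads without molecular identifiers are not independent molecules.

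Counts on mitochondrial-genome genes spanned 748822 to 9531230 per library in the high group and 100235 to 469832 in the low group. Nuclear-encoded totals were alike in size, 456797 to 806715 (median 736994) in the high group and 430162 to 1055433 (median 716978) in the low group. The libraries differed in their mitochondrial-genome counts far more than in their nuclear-encoded counts. Total depth moved with the split, and its part in the results was not tested: 1296403 to 9988027 counts against 530397 to 1483811. The high group held 6 Sed and 4 ExT libraries and the low group 4 Sed and 6 ExT (Fisher's exact test, two-sided, p = 0.656). Rats numbered 2 to 16 gave 4 high and 6 low libraries, and rats 17 to 32 gave 6 high and 4 low (p = 0.656 by the same exact test).

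**Figure D1:**
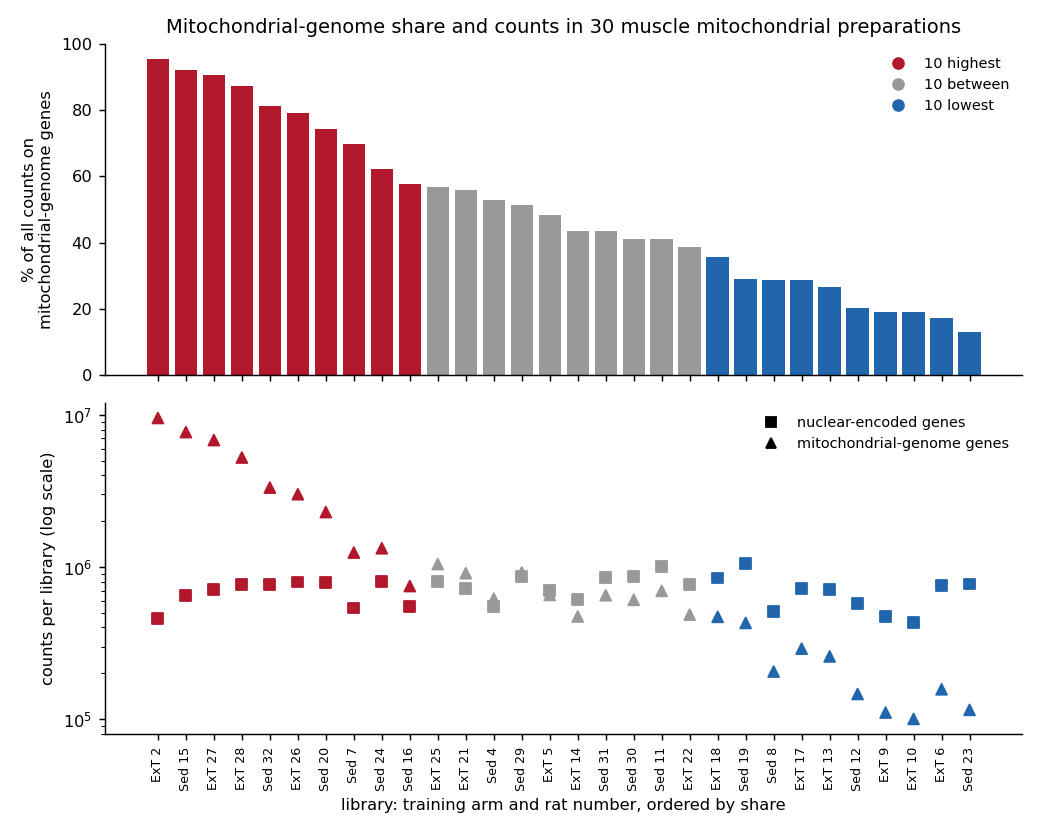
Upper panel: percent of all counts on mitochondrial-genome genes in each of the 30 preparations, ordered by share and coloured by group. Lower panel, log scale: nuclear-encoded counts (squares) and mitochondrial-genome counts (triangles) of the same libraries. The squares stay between 430162 and 1055433 while the triangles fall from 9531230 at the left to about 1e+05 at the right.

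The nuclear-encoded part of the libraries was compared next, as counts per 1000000 nuclear-encoded counts (nuclear CPM), a scale that the mitochondrial-genome counts do not enter. A level of 3 counts, taken as the floor, was worth 2.84 to 6.97 nuclear CPM, by library. In the preparations of high mitochondrial share, abundant non-coding RNAs, collagen and other matrix genes, and abundant muscle mRNAs took a larger part of the nuclear-encoded counts, while a small set of genes took a smaller part. edgeR's quasi-likelihood test called 61 of 18805 genes (0.324%) at a Benjamini-Hochberg adjusted p under 0.05. Of these, 46 rose in the high group (0.245% of genes tested) and 15 fell (0.0798%), with a median log2 fold change over all genes of -0.04.

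The genes that rose were also those that stand out in whole muscle. In SM, 44 of the 46 (95.7%) had a mean of at least 20 nuclear CPM, against 5 of the 15 that fell (33.3%) and 28.4% of all genes tested. The median level in SM was 401 nuclear CPM for the genes that rose, 6.16 for those that fell and 5.02 over all genes tested. Fold sizes were unequal in the 2 directions: 24 of the 46 rose by at least 2-fold, and among the 15 that fell Cd81 alone changed by as much (log2 fold change -1.24).

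**Figure D2:**
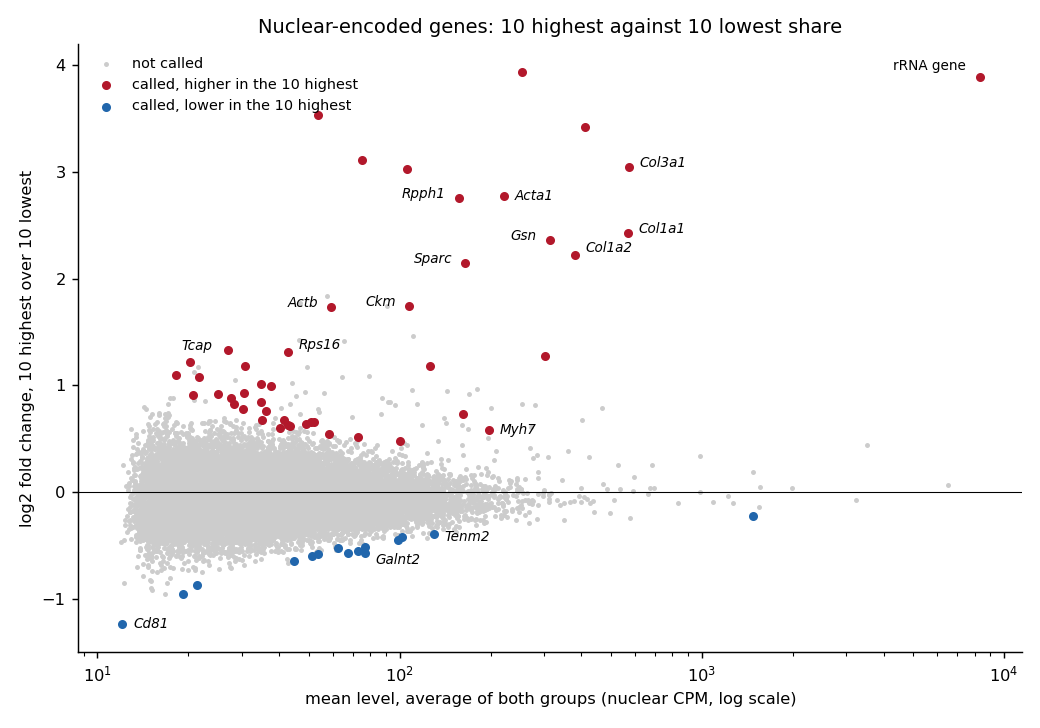
Log2 fold change of each of 18805 nuclear-encoded genes (10 highest over 10 lowest preparations) against its mean level in nuclear CPM on a log scale. Red and blue points are the 46 and 15 genes called higher and lower. The red points reach 3.94 and the blue ones no further down than -1.24.

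The number of calls moved with single libraries, and 35 to 61 of the 61 genes were called again when any 1 of the 20 was left out. Without the Sed library of rat 7 it was 183 and without the Sed library of rat 16 it was 169, both of them preparations at the lower edge of the high group. It fell to 38 without ExT rat 27, to 36 without Sed rat 8, to 38 without Sed rat 23, to 36 without ExT rat 6, to 35 without ExT rat 13 and to 38 without ExT rat 17. The split between directions moved with the scaling: 77 higher and 11 lower with TMM factors (0.409% and 0.0585% of genes tested), 83 and 10 with RLE factors (0.441% and 0.0532%), and 42 and 4 when scaled to the counts on genes without a count in SM (0.223% and 0.0213%). DESeq2 called 92 genes (0.400%), 69 higher (0.300%) and 23 lower.

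Groups that do not overlap at all, where each of the 10 high preparations lay above each of the 10 low ones, were found for 12 of 18805 genes (0.0638%), all in the upward direction. Of these, 11 were among the called genes: the rRNA genes ENSRNOG00000068307 and ENSRNOG00000062337, Col3a1, Acta1, Rpph1, Col1a1, Gsn, Col1a2, Sparc, Col4a1 and Cox5b. The other was Eef1a1, the elongation factor that brings aminoacyl-tRNA to the cytosolic ribosome, with a log2 fold change of 1.74 and an adjusted p of 0.0527. Eef1a1 and the genes outside the naming rule were picked after their values were seen.

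Among non-coding RNAs, rRNA, signal recognition particle RNA and Rpph1 separated the groups, while the larger lncRNA class did not. Nuclear-encoded rRNA genes, the templates of cytosolic ribosomal RNA, held 0.440% to 3.76% of nuclear-encoded counts in the high preparations (mean 1.72% ± 1.33, SD, n = 10) and 0.0758% to 0.282% in the low ones (0.143% ± 0.0640, n = 10). The groups did not overlap (permutation test, two-sided, p = 2.0e-05, adjusted over 12 measures 1.2e-04). The 3 preparations with the highest shares of mitochondrial counts, ExT rat 2, Sed rat 15 and ExT rat 27, were at 31539, 36819 and 37624 nuclear CPM for these genes, and the lowest of the high group, Sed rat 16, was at 4401. In the 10 preparations between the groups the range was 1592 to 5913 nuclear CPM, which reaches into both groups.

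ENSRNOG00000068307 carried most of this signal, between 53.3% and 93.6% of the nuclear-encoded rRNA counts of a library. Its level was 3799 to 34225 nuclear CPM (median 9635) in the high group and 425 to 2282 (median 962) in the low group, a log2 fold change of 3.89 ± 0.50 (SE) at an adjusted p of 0.00227. Of the 210 rRNA genes, 7 passed the filter on low counts and 4 rose. The kit depletes ribosomal RNA and rRNA genes exist in many near-identical copies, so what remains of them, and which copy receives a read, are uncertain.

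RNA of the signal recognition particle, which docks ribosomes onto the endoplasmic reticulum, followed the same order. Summed over its 27 gene copies it was 237 to 1567 nuclear CPM (median 443) in the high group, 138 to 237 (median 187) between the groups and 117 to 219.8 (median 139.8) in the low group. High and low preparations did not overlap. Of the 27 copies 3 were tested and all 3 rose, with log2 fold changes of 3.53 (ENSRNOG00000059449), 3.11 (ENSRNOG00000055825) and 3.03 (ENSRNOG00000048993). Their lowest libraries in the low group held 2, 2 and 3 counts, at or under the floor, so these fold sizes are uncertain. Reads cannot be placed firmly among such copies, and the sum is the safer value. The whole misc_RNA class, to which they belong, took 0.0610% ± 0.0417 of nuclear-encoded counts against 0.0149% ± 0.00315 (SD, n = 10 each, permutation p = 2.0e-05, adjusted 1.2e-04).

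Rpph1, the RNA subunit of nuclear RNase P, which trims the 5′ ends of nuclear-encoded tRNA precursors, ran from 107 to 639.9 nuclear CPM (median 209) in the high group and from 17 to 86.1 (median 27.4) in the low group. Each high preparation lay above each low one. The log2 fold change was 2.76 ± 0.44 (SE), adjusted p = 0.00716. In the rats' whole muscle, Rpph1 stood at 3727 ± 1250 and 3551 ± 876 nuclear CPM (SD, n = 10 each).

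The RNA of RNase MRP, a relative of RNase P that acts in rRNA maturation, spread more within groups than between them: 14.6 to 526 nuclear CPM (median 103) in the high group and 6.60 to 144 (median 48.8) in the low group. It was tested and not called. Small nuclear RNA genes, parts of the spliceosome, held 0.252% ± 0.0236 against 0.219% ± 0.0130 of nuclear-encoded counts (permutation p = 9.8e-04, adjusted 0.00196). For small nucleolar RNA genes the shares were 0.320% ± 0.0157 and 0.331% ± 0.0123 (adjusted permutation p = 0.130). Protein-coding genes held 90.5% ± 1.20 against 92.2% ± 0.139 (adjusted permutation p = 3.8e-04), pseudogenes 0.742% ± 0.0368 against 0.780% ± 0.0113 (0.00478), and lncRNA genes 6.22% ± 0.337 against 6.20% ± 0.0995 (0.871).

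**Figure D3:**
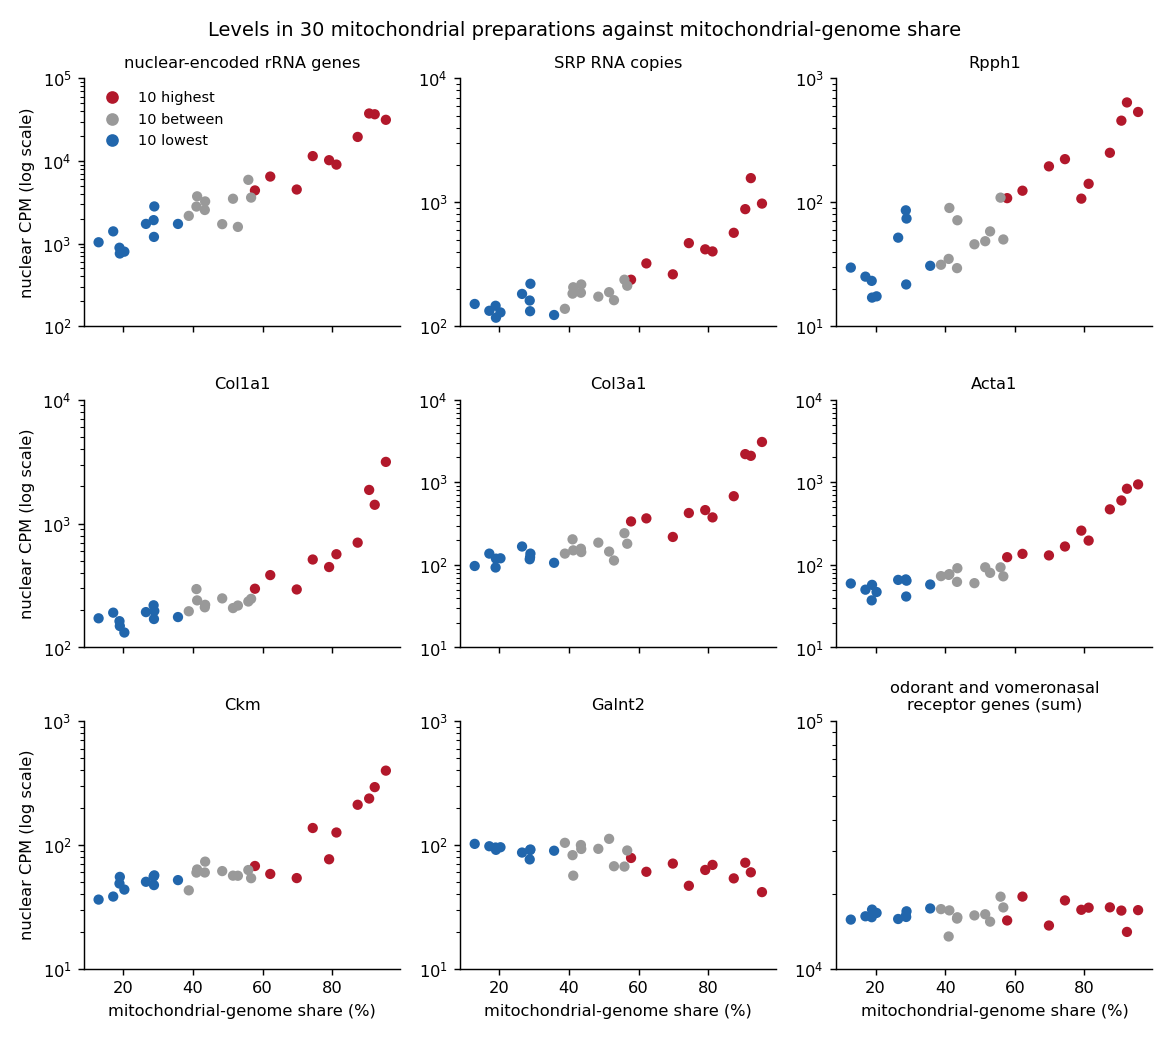
Nuclear CPM (log scales) of summed RNA classes and single genes in each of the 30 preparations against the mitochondrial-genome share. Points are libraries, red for the 10 highest, grey for the 10 between and blue for the 10 lowest. Median levels of Col1a1 and Acta1 are 174 and 57.6 nuclear CPM in the 10 lowest and 228 and 76.5 in the 10 between. In the 10 highest these genes reach up to 3150.2 and 944. Galnt2 is lower at the right, and the summed receptor genes stay level.

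Fibroblast and matrix genes supplied 5 of the calls. Of 14 tested, 5 rose (35.7%, beside 0.324% of all genes tested) and none fell. DESeq2 called 10 of them higher, beside 0.300% of all genes it tested. The median log2 fold change of the list was 0.94, with 13 of 14 members above 0, beside -0.04 over all genes tested. Its summed level was 2357 to 13249 nuclear CPM (median 3172) in the high group, 1798 to 2322 (median 2058) between the groups and 1702 to 1981 (median 1837) in the low group. Leaving out a single library gave 3 to 6 rising members. There were 3 without any of ExT rats 6, 9, 10, 13, 17, 18 and 27 or Sed rats 8, 12, 19 and 23, and the median stayed at 0.80 to 1.01.

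Col1a1 encodes a chain of type I collagen, the main fibrillar collagen of connective tissue. Its level was 294 to 3150.2 nuclear CPM (median 540.0) in the high group and 132 to 219 (median 174) in the low group. The 3 preparations of highest share, ExT rat 2, Sed rat 15 and ExT rat 27, stood at 3150.2, 1419 and 1870.4, above all others. The log2 fold change was 2.43 ± 0.43 (SE), adjusted p = 0.0163.

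Its partner chain Col1a2 was at 188 to 2056 nuclear CPM (median 351) against 102 to 179 (median 130.5). The type III collagen gene Col3a1 was at 218 to 3082 (median 443) against 93.0 to 167 (median 119.5), a log2 fold change of 3.05 ± 0.50 (SE) at an adjusted p of 0.00984. For all 3 fibrillar collagen genes the groups did not overlap. Sparc, a secreted collagen-binding protein, was at 105 to 720.2 nuclear CPM (median 167) in the high preparations and at 36.1 to 72.1 (median 62.4) in the low ones. Basement membrane collagen Col4a1 rose by 1.28 ± 0.27 (log2, SE), from 163 to 198 nuclear CPM in the low group to 209 to 865 in the high group.

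The small proteoglycan gene Dcn had a log2 fold change of 1.84 ± 0.45 (SE) and was not called (adjusted p = 0.0953). Its range of 16.8 to 234 nuclear CPM in the high group covered the whole low range of 16.8 to 34.0. Pdgfra, the receptor by which fibroblast lineages are recognised, stood apart from the collagens: 78.1 to 120.4 nuclear CPM (median 97.1) against 88.3 to 133 (median 99.8), a log2 fold change of -0.10 ± 0.10 (SE). In SM of these rats Pdgfra was at 40.5 ± 8.15 and 38.4 ± 6.13 nuclear CPM (SD, n = 10 each), below its level in the preparations. Whether its counts in the preparations follow fibroblast RNA was not tested. Called matrix genes outside the list were Col5a2 (1.18), Mfap4 (1.01), a protein of elastic microfibrils, and Col4a5 (0.62), all as log2 fold changes.

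Contractile and energy genes of the muscle fibre supplied further calls. All 11 fast-fibre genes tested had a log2 fold change above 0, with a median of 0.83, and 2 passed the test (18.2%, beside 0.324% of all genes; 5 with DESeq2). With 15 against 15 libraries 1 of them passed. The 2 were Myh2 and Acta1, the skeletal muscle actin, which is in this list without being a marker of fast fibres alone. Acta1 was at 124 to 944 nuclear CPM (median 228) in the high group and 37.2 to 66.7 (median 57.6) in the low group, without overlap. The log2 fold change was 2.77 ± 0.43 (SE), adjusted p = 0.00679. Actin genes share long stretches of sequence, so reads may be divided among them and their copies.

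Myh2, the fast IIa myosin heavy chain, was at 143 to 290.1 nuclear CPM (median 189) against 91.3 to 153 (median 119), a log2 fold change of 0.73 ± 0.13 (SE) at an adjusted p of 0.00679. Myh4, the IIb heavy chain, reached 276 to 853 (median 429.8) against 249 to 448 (median 281), and with a log2 fold change of 0.68 ± 0.21 (SE) it was not called (adjusted p = 0.193). Mylpf, a fast light chain, had a larger fold change of 1.77 ± 0.47 (SE) and was also not called (adjusted p = 0.123). Its 17.6 nuclear CPM in ExT rat 26 lay inside the low range of 14.5 to 26.6.

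Among 10 slow-fibre genes 2 rose (20.0%), and the list's median was 0.23. The count was 1 without any of ExT rats 10, 13, 18, 27 and 28 or Sed rats 8, 19 and 23, and 0 with 15 against 15 libraries (2 at an unadjusted p under 0.05 in edgeR). Myh7, the slow and cardiac myosin heavy chain, was at 175 to 367 nuclear CPM (median 223) in the high group and 116 to 212 (median 161) in the low group. Its log2 fold change was 0.58 ± 0.12 (SE), adjusted p = 0.0295. Atp2a2, the calcium pump of slow fibres, rose by 0.48 ± 0.10 (SE). Myh7b, a related heavy chain gene, was level at 181 ± 28.7 and 177 ± 16.3 nuclear CPM (SD, n = 10 each). Myosin heavy chain genes share sequence too, and their reads may be divided among copies.

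Genes of the sarcomere's giant proteins were not called. Of 12 giant sarcomeric and triad genes, edgeR and DESeq2 each called 0, with 1 at an unadjusted p under 0.05 in edgeR, and the list's median was 0.08. Over all genes tested edgeR called 0.324% and 11.6% were at such a p, so 0 of 12 lies near the background. Ttn, which encodes the giant spring protein titin, was at 1528 to 11426 nuclear CPM (median 2844) in the high group and 1624 to 5614 (median 2739) in the low group. Its lowest and its highest value over the 20 preparations both belonged to the high group: ExT rat 2, the preparation of highest mitochondrial share, at 1528 and Sed rat 20 at 11426.

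Ckm, the muscle creatine kinase, was at 54.0 to 398 nuclear CPM (median 131) in the high group and 36.2 to 56.8 (median 49.6) in the low group. Among the high preparations, 9 lay above all low ones. It rose by 1.74 ± 0.37 (log2, SE), adjusted p = 0.0466, as the only called member of 5 oxygen and phosphate buffering genes. No member of that list was called in 16 of the 20 fits that left out 1 library. A call remained without ExT rat 26 or Sed rats 7, 16 or 24. Mb, which encodes the oxygen store myoglobin, was at 57.3 to 127 (median 87.5) against 44.6 to 87.2 (median 73.1), a log2 fold change of 0.38 ± 0.13 (SE) with an adjusted p of 0.189. Tcap, the cap of titin at the Z-disc, rose by 1.33 ± 0.24.

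Genes whose proteins work inside mitochondria were called in 1 of 7 lists. Of 54 nuclear-encoded subunits of oxidative phosphorylation that were tested, out of 75, 3 rose (5.56%, beside 0.324% of all genes tested) and the median log2 fold change was 0.13. The count was 1 without ExT rat 27 and 1 with 15 against 15 libraries. The called genes were Cox5b and Cox4i1, subunits of cytochrome c oxidase, and Atp5f1b, the catalytic subunit of ATP synthase. Cox5b was at 17.7 to 40.1 nuclear CPM (median 25.8) against 6.97 to 17.4 (median 12.2), without overlap, a log2 fold change of 1.22 ± 0.22 (SE) at an adjusted p of 0.00180. Its lowest library rested on 12 counts in the high group and on 3, the floor, in the low group.

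Atp5f1b rose by 0.84 ± 0.18 and Cox4i1 by 0.63 ± 0.16 (log2, SE). Ndufs7 and Ndufb2, complex I subunits, had log2 fold changes of -0.20 and 0.04. edgeR and DESeq2 called 0 of 65 mitochondrial ribosomal proteins (median -0.03, 6 at an unadjusted p under 0.05 in edgeR), 0 of 38 carriers of the inner membrane (0.04, 3 at that p) and 0 of 22 import genes (-0.02, 3). The same held for 23 citrate cycle and pyruvate genes (0.08, 1), 18 fatty acid oxidation genes (0.12, 4), 14 glycolysis genes (0.11, 4) and 21 genes of mitochondrial DNA maintenance and expression (-0.03, 4). Over all genes tested 2185 of 18805 (11.6%) were at such a p and 0.324% were called, so a count of 0 in lists of this size lies near the background. Mrps15 and Mrpl47, ribosomal proteins of the organelle, were at 46.6 ± 10.0 and 42.8 ± 7.90 nuclear CPM in the high group and at 51.5 ± 10.2 and 47.0 ± 9.71 in the low group (SD, n = 10 each). Cpt1b and Hadha, enzymes of fatty acid import and oxidation, had log2 fold changes of 0.10 and 0.12.

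Cytosolic ribosomal protein genes supplied 5 calls. Of 64 tested, out of 96, 61 had a log2 fold change above 0 and the median was 0.36. The calls were 7.81% of those tested, beside 0.324% of all genes. There were 3 without any of ExT rats 2, 6 and 17 or Sed rat 15, up to 7 without Sed rat 7 or Sed rat 16, and 1 with 15 against 15 libraries. The 5 that rose were Rps16, Rpl19, Rplp0, Rpl29 and Rpl4. Rps16, of the small subunit, was at 29.1 to 98.6 nuclear CPM (median 53.8) in the high group and 15.3 to 31.6 (median 24.1) in the low group, where only the lowest high preparation reached into the low range. Its log2 fold change was 1.31 ± 0.18 (SE), and its adjusted p of 1e-05 was the smallest of all genes. Rpl22 and Rpl8 of the large subunit had log2 fold changes of 0.02 and 0.14. Ribosomal protein genes have many processed copies in the genome, which can take or lend reads.

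Other called genes belong to the cell's skeleton and secretory route. Gsn, an actin-severing protein with a secreted form, was at 159.9 to 1366 nuclear CPM (median 270.3) in the high group and 77.0 to 119 (median 106) in the low group, without overlap (log2 fold change 2.36 ± 0.43, SE, adjusted p = 0.0234). Cytoplasmic actin Actb was at 29.2 to 177 (median 77.4) against 9.87 to 36.6 (median 28.6). The chaperone gene Hsp90ab1 rose by 0.66 on the log2 scale. It was the only call among 11 heat shock and chaperone genes (9.09%, beside 0.324% of all genes tested), whose median was 0.11. The call was lost without ExT rat 28. Hspa8 and Trap1, the most abundant of that list, had log2 fold changes of -0.05 and 0.03. Outside the list Pdia3 rose by 0.64, lipoprotein lipase (Lpl) by 0.66 and the chemokine gene Cxcl9 by 1.10.

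**Figure D4:**
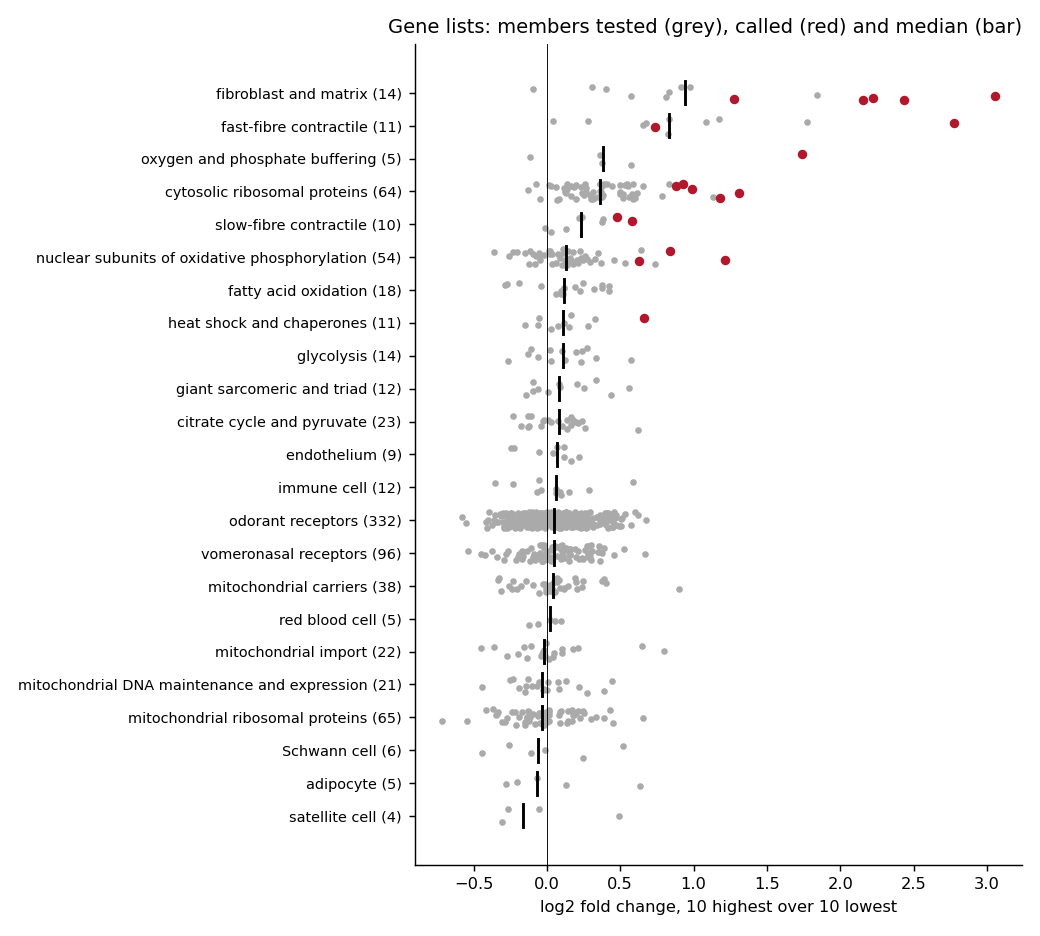
Log2 fold changes (10 highest over 10 lowest preparations) of the tested members of each gene list, with the number tested in brackets. Grey points were not called, red points were called higher, and bars are medians, from 0.94 for fibroblast and matrix genes to -0.16 for satellite cell genes.

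Markers of the other cells of muscle gave no calls in edgeR or DESeq2, among 9 endothelial, 12 immune cell, 5 red blood cell, 5 adipocyte, 6 Schwann cell and 4 satellite cell genes. At an unadjusted p under 0.05 in edgeR there were 1, 2, 0, 2, 2 and 1 of them. Over all genes tested 11.6% were at such a p and 0.324% were called, so counts of 0 in lists this small lie near the background. Vwf and Kdr of the endothelium were at 202 ± 38.4 and 126 ± 10.3 nuclear CPM in the high group and at 209.9 ± 11.8 and 116 ± 16.5 in the low group (SD, n = 10 each). Ptprc and Csf1r of immune cells had log2 fold changes of 0.06 and -0.23, and the globin gene Hba-a2 one of 0.10. Mean Ptprc was 118 and 115 nuclear CPM in the high and low group, and 10.9 and 10.8 in SM of these rats. Csf1r was at 102 and 118, and at 25.7 and 23.4 in SM. Vwf was at 139.5 and 149 in SM, Kdr at 125 and 132. Hba-a2 was higher in SM, at 80.1 and 96.2 against 49.2 and 46.3. Whether levels in the preparations follow the amount of these cells was not tested.

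Odorant and vomeronasal receptor genes, known for their role in smell, held 1.70% ± 0.169 of nuclear-encoded counts in the high preparations and 1.65% ± 0.0604 in the low ones (adjusted permutation p = 0.450). In SM of these rats their share was 0.00119% ± 1.9e-04 and 0.00115% ± 1.1e-04. edgeR and DESeq2 called 0 of 332 odorant and 0 of 96 vomeronasal receptor genes (24 and 9 at an unadjusted p under 0.05 in edgeR), and both lists had a median log2 fold change of 0.05. In edgeR 0.324% of all genes tested were called and 11.6% were at such a p.

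Genes without a count in any SM library, 6434 in number, likewise held 3.83% ± 0.215 against 3.92% ± 0.0758 (adjusted permutation p = 0.337). The 200 genes highest in SM rose from 2.29% ± 0.253 to 4.55% ± 1.95 of nuclear-encoded counts (permutation p = 4.0e-05, adjusted 1.6e-04). In SM itself the same 200 genes held 58.4% and 57.7% in the rats of the high and the low group. With every library thinned to 430162 nuclear-encoded counts, 26672.5 ± 473 genes had a count in the high group and 27066.5 ± 59.1 in the low group (adjusted permutation p = 0.00355). SM libraries thinned to the same total had a count on fewer genes, 12001.2 ± 132 in the rats of the high group and 11982.9 ± 82.2 in those of the low group.

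The genes that fell changed by smaller amounts, with a median log2 fold change of -0.57 against 1.04 for those that rose. Their median level in the preparations was 67.3 nuclear CPM, beside 51.6 for the genes that rose and 38.4 over all genes tested. The most abundant was ENSRNOG00000066981, at 1199.7 to 1474 nuclear CPM in the high group and 1439 to 1689 in the low group, a log2 fold change of -0.22 with an adjusted p of 0.0406. Galnt2, a Golgi enzyme that starts O-linked glycosylation, was at 41.6 to 78.5 nuclear CPM (median 61.8) in the high group and 76.4 to 102 (median 91.6) in the low group. In 9 of 10 high preparations it lay below every low one, and the log2 fold change was -0.57 ± 0.11 (SE), adjusted p = 0.00415. Tenm2, an adhesion protein best known from neurons, was at 92.9 to 125 (median 116) against 122 to 186 (median 143). Its log2 fold change was -0.39 ± 0.094 (SE), adjusted p = 0.0273.

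Cd81, a tetraspanin of the cell surface, had the largest drop, from 9.87 to 21.0 nuclear CPM in the low group to 2.82 to 15.2 in the high group, levels close to what 3 counts allow. Myl9, a smooth muscle light chain, fell by 0.87, the leukotriene enzyme gene Alox5 by 0.60, Hif3a, a relative of the hypoxia factor, by 0.58, and Pold1, a DNA polymerase subunit, by 0.57 on the log2 scale. Further genes that fell were Dbx2, Il4i1, Coro7, Sbk1, Ppp1r13b, Cic and Tyk2. In whole muscle, Galnt2, Sbk1, Cic, Myl9 and Ppp1r13b were the 5 with at least 20 nuclear CPM, and others were lower, such as Tenm2 with 4.74 ± 2.57 and 7.80 ± 3.20 (SD, n = 10 each). Lowest were Dbx2, Hif3a, ENSRNOG00000066981 and Il4i1, with SM means of 0.00342, 0.146, 0.304 and 0.912 nuclear CPM. Their means over the 20 preparations were 19.1, 53.5, 1477 and 44.7. Where the counts of such genes in the preparations come from was not tested.

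The make-up of the mitochondrial-genome counts is given as a description with no test, since these counts, most of them rRNA, chose the preparations. Mitochondrial rRNA took 74.7% to 84.4% of these counts in the high preparations (mean 81.0% ± 3.21, SD, n = 10) and 67.8% to 78.9% in the low ones (73.6% ± 3.89). Mitochondrial mRNA took 18.9% ± 3.21 against 25.9% ± 3.88. Both pairs of ranges overlapped.

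Mitochondrial tRNA did not overlap: 0.0470% to 0.266% of mitochondrial-genome counts (mean 0.138% ± 0.0739) in the high group and 0.344% to 0.950% (0.535% ± 0.178) in the low group. In absolute counts tRNA was higher in the high group all the same, 1586 to 7995 per library against 433 to 2479. Mitochondrial rRNA counts were 587958 to 7371063 against 73445 to 359602.

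**Figure D5:**
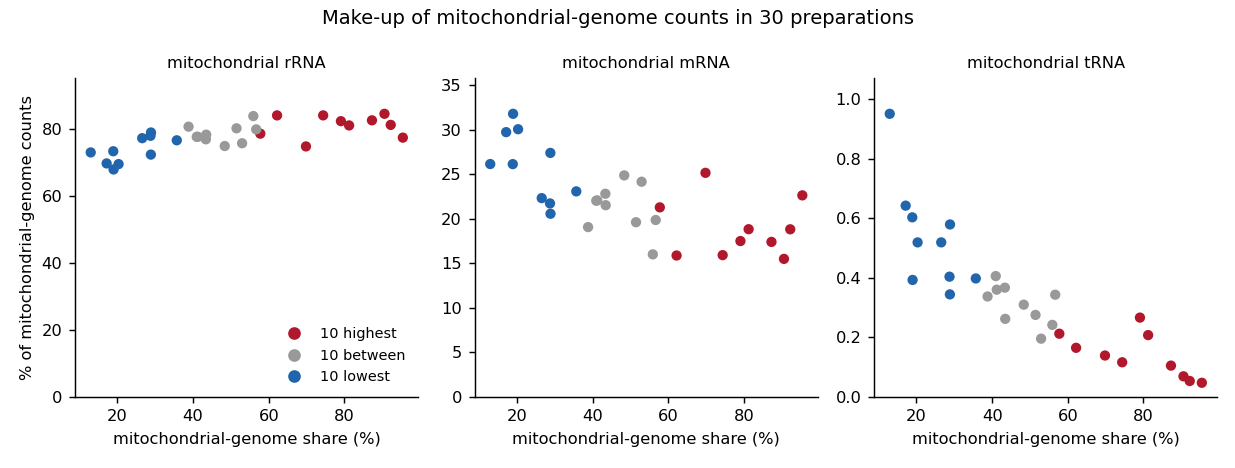
Percent of mitochondrial-genome counts on rRNA, mRNA and tRNA in each of the 30 preparations against the mitochondrial-genome share, with axes from 0. Points are libraries coloured by group. The tRNA share is 0.950% in the library of lowest mitochondrial share and 0.0470% in that of the highest.

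AY172581.24 held 43.3% ± 3.82 of mitochondrial-genome counts in the high group and 36.4% ± 3.12 in the low group, and AY172581.9 held 37.6% ± 1.67 and 37.2% ± 1.33. Of the 13 mRNAs, 11 had a lower mean share of mitochondrial-genome counts in the high group. Mt-nd5, a complex I subunit, was at 1.10% to 2.01% against 2.20% to 3.99% without overlap. Mt-cyb, the cytochrome b of complex III, was at 1.81% ± 0.436 against 2.93% ± 0.565.

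Mt-nd1, Mt-nd2, Mt-nd4, Mt-nd4l, Mt-co1, Mt-co2, Mt-co3, Mt-atp6 and Mt-atp8 were the others of the 11. Mt-atp8, an ATP synthase subunit, was at 0.0141% ± 0.00975 against 0.0372% ± 0.0185, and Mt-co1, the core of cytochrome c oxidase, at 7.29% ± 1.38 against 8.29% ± 0.959. Mt-nd6, the mRNA read from the other strand, was at 0.739% ± 0.165 and 0.648% ± 0.185, and Mt-nd3 at 0.145% ± 0.0156 and 0.143% ± 0.0329. The deposited tables do not say how strand was counted, so Mt-nd6 and the genes it overlaps may share reads.

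For the called genes, the preparations between the groups mostly lay between them. For 40 of the 46 genes that rose and 12 of the 15 that fell, the median of the 10 intermediate libraries fell between those of the high and the low group. The same held for 7652 of all 18805 genes tested, but the called genes were chosen for a gap, which leaves more room for it. Within the 10 intermediate libraries alone, the log2 ratio of mitochondrial to nuclear-encoded counts was used as a number. There edgeR called no gene of 20032 (1209 at an unadjusted p under 0.05). The slope had the same sign as the fold change for 34 of the 46 and 9 of the 15 genes, beside 10950 of 18737 over all genes. With that ratio over all 30 libraries, which include the 20 just compared, 464 of 21261 genes were called (2.18%), 231 higher (1.09%) and 233 lower (1.10%).

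Within the training arms the comparison gave unequal counts, over unlike splits. High libraries held mitochondrial-genome shares of 79.1% to 95.4% in ExT and 57.8% to 92.2% in Sed. Low libraries held 17.1% to 35.7% in ExT and 12.9% to 28.9% in Sed. The 2 counts are therefore not a like comparison of the arms. Among ExT libraries alone (4 high and 6 low) 106 of 19657 genes were called (0.539%), 69 higher (0.351%) and 37 lower (0.188%), and among Sed libraries alone (6 high and 4 low) 0 of 19483, with 918 at an unadjusted p under 0.05. The difference between arms, tested as an interaction in edgeR, was called for 0 of 20892 genes (954 at an unadjusted p under 0.05). The median log2 fold change of fibroblast and matrix genes was 0.73 in Sed and 1.26 in ExT, and that of fast-fibre genes 0.69 and 0.88.

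By rat number, 6 of 17695 genes were called within rats 2 to 16 (0.0339%) and 3 of 20075 within rats 17 to 32 (0.0149%), and no interaction was called among 20892 genes (1336 at an unadjusted p under 0.05). The 6 were Rpl29, Rps16, Atp5f1b and Myh2, all among the 61, with Fbln2 and Hmcn2. The 3 were Actb and Rps16, among the 61, with AABR07043389.1. Matrix genes had medians of 1.21 and 0.78 in the earlier and later rats.

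Whole muscle of the rats in question gave no call in edgeR. Mitochondrial-genome genes held 29.8% ± 3.02 of SM counts in the rats of the high group and 31.8% ± 4.52 in those of the low group (SD, n = 10 each, permutation p = 0.255, adjusted over 15 measures 0.849). edgeR called 0 of 13591 nuclear-encoded genes (475 at an unadjusted p under 0.05). Summed nuclear-encoded rRNA genes stood at 3351 ± 3945 nuclear CPM in SM of the high rats and 1532 ± 573 in SM of the low rats (permutation p = 0.238, adjusted 0.849). ENSRNOG00000068307 had a log2 fold change of 1.14 ± 0.51 there (SE, adjusted p = 0.998). For Col3a1 the SM levels were 1902 ± 615 and 1896 ± 420 nuclear CPM, for Acta1 34018 ± 4494 and 34372 ± 4012, and for Ckm 14014 ± 1709 and 13791 ± 2397. Col1a1 was at 2608 ± 2214 and 1719 ± 1131, a difference inside the spread between rats.

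DESeq2, run on the same SM counts, called 16 of 16313 genes (0.0981%), all lower in the rats of the high group. They included the listed Schwann cell genes Mbp, S100b and Pmp22, and Pmp2, Mal, Ugt8 and Ncmap, which also serve myelin. edgeR gave Mbp in SM a log2 fold change of -1.61 with an adjusted p of 0.447. In the preparations themselves Mbp had a log2 fold change of -0.11, and none of the 16 was among the 61 called genes.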

How the data were processed

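Counts per gene, whole numbers, were deposited by the authors as 1 table for MT and 1 for SM, 30560 genes with Ensembl identifier, symbol and biotype. FastQC 0.74, cutadapt 4.6, STAR 2.7.11a, HTSeq and the build mRatBN7.2 are named per the submitters' processing notes. The annotation release and strand setting are not given in the sources used here. All 60 columns matched sample titles. The closest pair of MT libraries in an arm still differed beyond sampling noise (chi-square per degree of freedom 1.15), so none was merged.

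Here the mitochondrial-genome share was computed per library, the 10 highest and 10 lowest MT libraries were taken, and nuclear-encoded counts were tested with edgeR 4.0.16 (glmQLFit, robust, and glmQLFTest) in R 4.3.3, with nuclear-encoded totals as library sizes, normalization factors of 1 and filterByExpr. Called means a Benjamini-Hochberg adjusted p under 0.05 over all genes tested. The SE is the log2 fold change divided by the root of F. DESeq2 1.42.0 was an alternative. Shares per library were tested with two-sided permutation tests (100000 resamples), adjusted over their family. Whole muscle of the same rats was fitted in the same way. On simulated counts for 18737 genes the fit recovered 87.9% of 2-fold and 100% of 4-fold changes, with 10 false calls. That simulation gave every gene in both groups the same dispersion and changed only genes averaging 10 counts or more. Some genes spread far more in the high group, such as Col3a1 at 1023 ± 1029 nuclear CPM (SD). The recovery therefore does not describe such genes.

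Genes were named by rule: among called genes that carry a symbol and average 20 nuclear CPM or more, the 6 of largest fold change and the 4 of highest mean in each direction, the 2 most abundant tested members of each gene list, Rpph1 and the 13 mitochondrial mRNAs. Some genes that this rule names are not reported here. Other names were chosen after their values were seen. The members and lists were chosen with earlier results of these data known. Alternatives changed the normalization, filter, depth, group size, ranking, covariates and libraries used. Each library is from 1 rat. Left ventricle libraries were not used here.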

Additional observations from a re-analysis of the deposited data

Results flagged for a closer look

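In 178 groups of 10 libraries, 11 held a library at one end that stood far from the other 9, by a gap above Dixon's 95% critical value. Chance gives about 1 such library in 20 groups. The high preparation of Sed rat 20 stood apart upward for Ttn at 11426 nuclear CPM (next 6364). The preparation of highest share, ExT rat 2, stood apart for Col1a2 at 2056 (next 1114). Hif3a, a gene that fell in the high group, was at 73.0 in the high preparation of Sed rat 16 (next 49.5).

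In the low group the endothelial gene Vwf was at 239 nuclear CPM in Sed rat 8 (next 216), the signal recognition particle copy ENSRNOG00000059449 at 20.8 in Sed rat 19 (next 9.87), and the lipid droplet gene Cidec at 76.4 in ExT rat 9 (next 49.1). ExT rat 9 also had the highest pseudogene share, 0.807% of nuclear-encoded counts (next 0.785%). Sed rat 23, the preparation of lowest mitochondrial share, had a mitochondrial tRNA share of 0.950% (next 0.642%). In whole muscle, the 200 genes highest in SM held 53.1% of counts in ExT rat 27 (next 57.5%), of the high group, and 64.4% in Sed rat 8 (next 58.6%), of the low group. Receptor genes held 7.5e-04% in the SM library of Sed rat 20 (next 0.00106%).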

How the results depend on the processing

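The number of genes called between high and low preparations was 61 in the fit reported. It was 93 with RLE size factors, 92 with DESeq2, 33 with every library thinned to the smallest nuclear-encoded total, 32 with 15 against 15 libraries, 26 with libraries ranked by mitochondrial mRNA alone, 464 with the ratio as a number over 30 libraries, 0 in the 10 libraries between, 0 in Sed, 106 in ExT, 6 in rats 2 to 16 and 3 in rats 17 to 32. The arm and rat subsets hold fewer samples. The cause of a changed count was not tested for any setting. Leaving out 1 library at a time, which was added after seeing the data, gave 35 to 183. The whole-muscle count of 0 became 16 with DESeq2. For the interactions with arm and rat number, edgeR with TMM factors or with the filter of at least 20 counts also called 0 genes (942 and 584, and 1351 and 849, at an unadjusted p under 0.05). In the 10 libraries between and in Sed that number was 1209 and 918.

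In the 10 libraries between, the slope on the log2 ratio turned sign for 18 of the 61 genes, none at an adjusted p under 0.05. It was -0.01 for Col1a1, Myh2, Hsp90ab1 and Col4a5, -0.02 for Rpl29, -0.03 for Hnrnph3, -0.08 for Pdia3, -0.12 for Col4a1, -0.19 for Cox4i1, -0.24 for Rpl19, -0.25 for Cxcl9 and -0.33 for Mfap4. Among genes that fell it was 0.00 for Alox5, 0.02 for Ppp1r13b, 0.06 for Cd81 and ENSRNOG00000066981, 0.08 for Dbx2 and 0.13 for Myl9. No called gene turned sign in the other settings where it was tested.

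Shares per library, as high minus low, missed the threshold in Sed libraries alone for protein-coding genes (-1.10 percentage points), snRNA (0.0298), pseudogenes (-0.0250), rRNA (1.07), ribozyme (0.0336), misc_RNA (0.0385), the 200 genes highest in SM (1.72) and genes with a count after thinning (-246 genes). In rats 17 to 32 alone the same measures were -1.63, 0.0411, -0.0225, 1.39, 0.0235, 0.0345, 1.87 and -257. In rats 2 to 16 alone snRNA (0.0155) and genes with a count (-596) missed the threshold. There, genes without a count in SM (-0.271, adjusted exact permutation p = 0.00816) passed it, and lncRNA, 0.0187 in the 20 libraries, turned to -0.245 (adjusted exact permutation p = 0.0286).

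No paired analysis was possible because the high and low preparations came from different rats and no rat number occurs in both groups. Low counts limit what can be seen: at 3 counts a level is 2.84 to 6.97 nuclear CPM, and a called gene such as Cd81 sits close to it. Every level is a share of nuclear-encoded counts, so the levels of one library are not independent of each other.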

Other observations

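Ttn, at 1528 to 11426 nuclear CPM in the high group and 1624 to 5614 in the low group, varied more within the groups than between them. Over all 30 preparations the log2 level of Ttn went with that of Neb (Pearson r = 0.90, Spearman rho = 0.85), Myh7 (r = 0.76, rho = 0.66) and, outside the sarcomere, the RNA of RNase MRP (r = 0.84, rho = 0.84). Permutation p-values for r were 1.0e-05 in each of these cases, the smallest that 100000 permutations can give, and 1.7e-05 after adjustment over 5 relations. For rho the adjusted permutation p was 2.5e-05 for Neb and RNase MRP and 1.5e-04 for Myh7. Without the 2 libraries farthest from the median of Ttn, r was 0.82, 0.65 and 0.79.

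Within Sed and ExT libraries r with RNase MRP was 0.85 and 0.83, and within rats 2 to 16 and rats 17 to 32 it was 0.87 and 0.84. With Rpph1, r was 0.45 (rho = 0.39, adjusted permutation p 0.015 and 0.0422), 0.29 without those 2 libraries, 0.69 in Sed, 0.17 in ExT, 0.28 in rats 2 to 16 and 0.62 in rats 17 to 32. With the mitochondrial share r was 0.25 and rho 0.13 (permutation p = 0.181 and 0.496), and r was 0.05 without the 2 libraries. Levels within a library share 1 nuclear-encoded total and 1 preparation. The relation was noticed in these data before it was computed, and its cause was not tested.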
